A study of Homo sapiens with 18 samples.

Results

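LIS1, the product of PAFAH1B1, binds cytoplasmic dynein, the motor that carries cargo and nuclei toward the minus ends of microtubules, and loss of a single copy of the gene in humans causes lissencephaly, a brain with few or no folds. When human pluripotent stem cells are led into neural tissue, the genes that hold the pluripotent state, among them POU5F1 (OCT4) and the nodal signalling genes, are shut off, and the genes of the early neural plate come on. The data described here ask at which genes the LIS1+/- genotype had another effect at Day 5 of organoid culture than it had in the stem cells from which the organoids were grown.

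The study measured bulk MARS-seq libraries, a 3′ tag RNA-seq method, from WIBR3 human embryonic stem cells (hESC) and from cerebral organoids made of them at Day 5 and Day 12, with genotypes LIS1+/- and LIS1+/+. Of the 18 libraries, 12 enter the comparison: 3 of LIS1+/- stem cells, 3 of LIS1+/+ stem cells, 3 of LIS1+/- Day 5 organoids and 3 of LIS1+/+ Day 5 organoids. All 4 groups come from the same cell line, no treatment is named, and how the allele was altered, how many clones were used and how many organoids went into a library go unstated in the sources used. Genotype and clone can therefore not be told apart, and since nothing in the labels says that repeats came from separate cultures, a p-value here measures the spread between libraries. The stages also carry different pool numbers in the names of their files, so each genotype effect lies within a pool, and the step from stem cells to Day 5 cannot be told apart from the change of pool.

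The quantity reported for each gene is the difference of 2 genotype effects on the log2 scale, namely LIS1+/- over LIS1+/+ at Day 5 minus LIS1+/- over LIS1+/+ in hESC, given with its standard error (SE) and with 3 libraries a group throughout. A negative difference means that the gene stood lower in LIS1+/- relative to LIS1+/+ at Day 5 than it did in stem cells. A gene is called where the adjusted p of the edgeR quasi-likelihood test is under 0.05, and levels are in CPM, counts relative to the scaled total of the library, which compare libraries and not genes. The 12 libraries held 1602532 to 4501489 counts over genes, with 4216835 to 4501489 in LIS1+/+ Day 5 organoids, the deepest group, and 13590 to 15182 genes with a count. The share of reads set aside as not uniquely aligned was 34.9% to 52.5% in LIS1+/- stem cells, 46.2% to 58.3% in LIS1+/+ stem cells, 31.7% to 33.7% in LIS1+/- Day 5 organoids and 29.9% to 31.9% in LIS1+/+ Day 5 organoids, and its part in the results was not tested. The stages matched their labels by markers: the summed level of 6 pluripotency markers was 3446 to 3702 CPM in LIS1+/- stem cells, against 4632 to 4801 CPM in LIS1+/+ stem cells, and it was 486 to 621 CPM in LIS1+/- Day 5 organoids, against 899 to 987 CPM in LIS1+/+ Day 5 organoids. The summed level of 6 neural progenitor markers was 1058 to 1264 CPM in LIS1+/- stem cells, against 1057 to 1097 CPM in LIS1+/+ stem cells, and 2312 to 3074 CPM in LIS1+/- Day 5 organoids, against 2199 to 3482 CPM in LIS1+/+ Day 5 organoids.

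The promoters of MIXL1, HES4 and SFRP2 are shown because these genes stand for the 3 kinds of change described below: a gene lower in LIS1+/- organoids at Day 5, a gene higher in LIS1+/- stem cells alone, and a gene higher in LIS1+/- organoids at Day 5. Each is the stretch of 250 bases before the annotated start in RefSeq, build GRCh38.p14, written 5′ to 3′ on the gene's own strand. The capitals mark matches on either strand to the octamer ATGCAAAT bound by POU5F1, the SOX core CATTGT or the FOXH1 site TGTNNATT, motifs that do not overlap in these promoters.
MIXL1, chr1:226223414-226223663, plus strand: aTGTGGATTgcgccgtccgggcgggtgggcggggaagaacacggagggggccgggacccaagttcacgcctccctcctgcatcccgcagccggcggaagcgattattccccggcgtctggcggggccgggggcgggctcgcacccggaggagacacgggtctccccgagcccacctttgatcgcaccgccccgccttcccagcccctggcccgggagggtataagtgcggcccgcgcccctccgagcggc
HES4, chr1:1000098-1000347, minus strand: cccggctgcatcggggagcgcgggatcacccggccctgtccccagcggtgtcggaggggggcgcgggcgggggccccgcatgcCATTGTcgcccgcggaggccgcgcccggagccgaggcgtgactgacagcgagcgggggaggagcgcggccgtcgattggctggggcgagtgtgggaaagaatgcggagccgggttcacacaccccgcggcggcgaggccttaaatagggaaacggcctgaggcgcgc
SFRP2, chr4:153789084-153789333, minus strand: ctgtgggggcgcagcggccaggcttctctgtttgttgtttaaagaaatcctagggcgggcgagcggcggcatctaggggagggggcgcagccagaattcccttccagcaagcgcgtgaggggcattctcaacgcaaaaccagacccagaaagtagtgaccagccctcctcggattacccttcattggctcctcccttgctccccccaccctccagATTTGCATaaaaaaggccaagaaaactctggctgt
The MIXL1 window held 1 FOXH1 site at its far end, the HES4 window 1 SOX core, and the SFRP2 window 1 octamer close to the start. Of the 101 genes with a called negative difference, 64 had a promoter in the table, and the FOXH1 site was in 3 of those 64 (4.69%), against 4.34% of the 8736 tested genes with a promoter. The octamer was in 2 of the 64 (3.12%), against 1.18% of tested genes, and the SOX core in 7 (10.9%), against 4.75%. Over all 27305 promoters these shares were 1.66% and 9.45%. Of the 6 called pluripotency or nodal genes with a promoter, none held the octamer or the SOX core. Also searched were the CCAAT box, in 32.8% of the 64 against 35.5% of tested genes, and the TATA box, in 7.81% against 4.7%. The TEAD site was in 7.81%, against 9.43%. These shares were not tested. A match is a description of the letters and says nothing of binding in these cells.

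The targeted gene itself checked the labels. PAFAH1B1 had 58.4, 49.6 and 53.3 CPM in LIS1+/- stem cells, against 82.6, 71.0 and 107 CPM in LIS1+/+ stem cells. At Day 5 it had 85.1, 100.1 and 80.1 CPM in LIS1+/- organoids, against 125, 129 and 147 CPM in LIS1+/+ organoids. At both stages the 3 LIS1+/- values were under all 3 LIS1+/+ values. The genotype effect was -0.70 in hESC (adjusted p = 0.0811) and -0.60 at Day 5 (adjusted p = 0.066), neither past the threshold. The difference between the stages was 0.10 ± 0.25 (adjusted p = 0.909), a value whose sign turned under 4 other ways of processing, where it lay between -0.17 and -0.033.

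The genotype had a different effect at Day 5 than in stem cells at 117 of 11522 genes tested (1.02%). Of these, 101 had a negative difference (0.877% of tested genes) and 16 a positive one (0.139%), and 110 of the 117 differences were at least 2-fold. In the same libraries, 87 genes were called for the genotype in hESC (0.755%), 52 higher (0.451%) and 35 lower (0.304%) in LIS1+/-, and 293 at Day 5 (2.54%), 82 higher (0.712%) and 211 lower (1.83%). All 101 genes with a negative difference stood lower in LIS1+/- than in LIS1+/+ organoids at Day 5, while 23 of them stood lower in stem cells. All 16 genes with a positive difference stood higher in LIS1+/- organoids, and 1 of them, HOMER2, stood higher in LIS1+/- stem cells. Calling genes on the difference favours these signs at both stages, and the shares over all tested genes are not given here. Among the 101, the Day 5 effect alone was called for 67, the hESC effect alone for 12, both for 3 and neither for 19. Among the 16, these counts were 9, 4, 0 and 3.

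**Figure D1:**
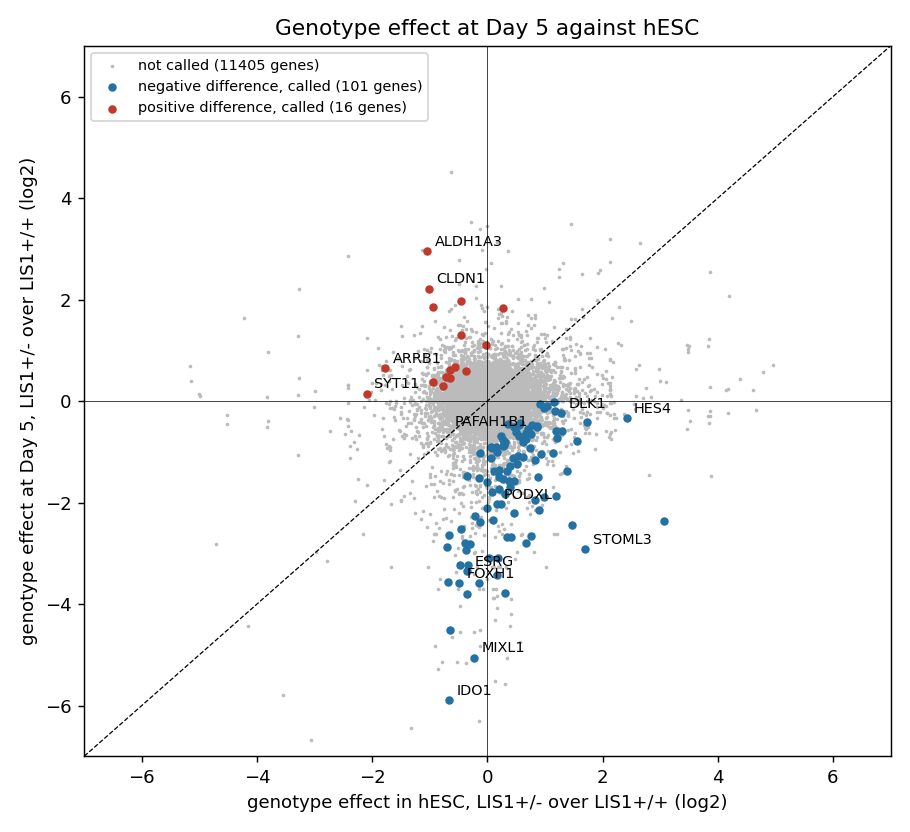
Genotype effect (LIS1+/- over LIS1+/+, log2) at Day 5 on the vertical axis against the same in hESC on the horizontal axis, 1 point per tested gene. Blue points are the 101 genes with a called negative difference, red points the 16 with a called positive one, grey points the rest, and the dashed line marks equal effects. All blue points lie below 0 on the Day 5 axis and all red points above it, which calling genes on the difference favours.

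The negative differences with the smallest p were at genes of the stem cell state, lower in LIS1+/- organoids at Day 5. Their effects in the stem cells were smaller and not called, though some also ran lower in LIS1+/- there. Of 21 tested genes of the pluripotency list, 9 had a called negative difference and none a called positive one (42.9%, beside the 1.02% of all tested genes), and the list's median difference was -1.70, beside -0.02 over all tested genes. The list was chosen with earlier results of these data known, so this share is no independent support. With UTF1, which had no count in LIS1+/- organoids, set to its bound of 3 counts and NANOG left out at its low counts, the median was -1.40. At Day 5, 12 of the 21 were called lower in LIS1+/-, and none was called in hESC. The list's median effect was -0.26 in hESC and -2.04 at Day 5. In a bulk library, fewer cells that hold these transcripts and less RNA per cell cannot be told apart. Among the called members were ESRG, PODXL, ZSCAN10, VRTN, POU5F1, L1TD1, CD9 and TDGF1.

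ESRG, a long noncoding RNA that is abundant in human pluripotent cells, had the smallest p of the comparison. It had 1371, 1270.4 and 1249 CPM in LIS1+/- stem cells, against 1485, 1609 and 1880.5 CPM in LIS1+/+ stem cells. Day 5 values were 8.94, 10.8 and 7.78 CPM in LIS1+/- organoids, against 79.2, 81.7 and 120.3 CPM in LIS1+/+ organoids. The groups did not overlap at either stage, but they lay close in stem cells, while at Day 5 the highest LIS1+/- library stood far under the lowest LIS1+/+ one. The difference was -3.00 ± 0.26 (adjusted p = 3.42e-07), made of -0.35 in hESC and -3.35 at Day 5. Of its hESC level, 0.709% remained at Day 5 in LIS1+/-, against 5.65% in LIS1+/+.

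POU5F1, the transcription factor OCT4, had 485, 386 and 437 CPM in LIS1+/- stem cells, against 548, 521 and 444 CPM in LIS1+/+ stem cells. In the Day 5 libraries it had 8.23, 7.0 and 5.56 CPM in LIS1+/- organoids, against 31.3, 31.4 and 36.2 CPM in LIS1+/+ organoids. The stem cell groups overlapped, and the Day 5 groups did not. The difference was -2.05 ± 0.25 (adjusted p = 5.98e-05). Its near-identical copy POU5F1B gave -2.41 ± 0.28 (adjusted p = 2.61e-05), and since counting could split reads between the copies, the level of each is uncertain.

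PODXL, a sialomucin that carries epitopes used to sort pluripotent cells, had 1288, 1691 and 1700.0 CPM in LIS1+/- stem cells, against 1523, 1460.2 and 1204 CPM in LIS1+/+ stem cells. Levels at Day 5 were 60.4, 57.0 and 57.0 CPM in LIS1+/- organoids, against 214, 227 and 275 CPM in LIS1+/+ organoids. The groups overlapped in stem cells, and at Day 5 the LIS1+/- libraries all lay below the LIS1+/+ ones. The difference was -2.20 ± 0.22 (adjusted p = 2.57e-06). The tetraspanin CD9 differed by -1.97 ± 0.29 (adjusted p = 0.00039). CD9 ran lower in LIS1+/- at both stages, with an effect of -0.67 in hESC (adjusted p = 0.0507) and of -2.64 at Day 5 (adjusted p = 1.4e-07).

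ZSCAN10, a zinc finger factor of the pluripotency network, had 5.48 ± 3.35 CPM in LIS1+/- Day 5 organoids, against 48.7 ± 5.00 CPM in LIS1+/+ Day 5 organoids (mean ± SD), and its difference was -3.12 ± 0.33 (adjusted p = 9.26e-06). VRTN, vertnin, had 20.0 ± 5.31 CPM in LIS1+/- Day 5 organoids, against 86.1 ± 2.24 CPM in LIS1+/+ Day 5 organoids, with a difference of -2.11 ± 0.23 (adjusted p = 9.34e-06). L1TD1, an RNA-binding protein derived from a transposon, had 3.17 ± 2.83 CPM in LIS1+/- Day 5 organoids, against 29.1 ± 7.30 CPM in LIS1+/+ Day 5 organoids, with a difference of -2.90 ± 0.39 (adjusted p = 0.000149). For these 3 genes the stem cell effects were 0.02, 0.00 and -0.33 in that order, none of them called.

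Other members of the list did not pass the test. SOX2, which pluripotent cells and neural progenitors share, differed by 0.10 ± 0.21 (adjusted p = 0.887). NANOG had no count in the LIS1+/- Day 5 libraries, against 3 counts in the LIS1+/+ ones, and its difference was not called (adjusted p = 0.676). SALL4 differed by -1.02 ± 0.27 (adjusted p = 0.0799), DNMT3B by -0.47 ± 0.19 (adjusted p = 0.273) and LIN28A by -0.42 ± 0.22 (adjusted p = 0.406).

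**Figure D2:**
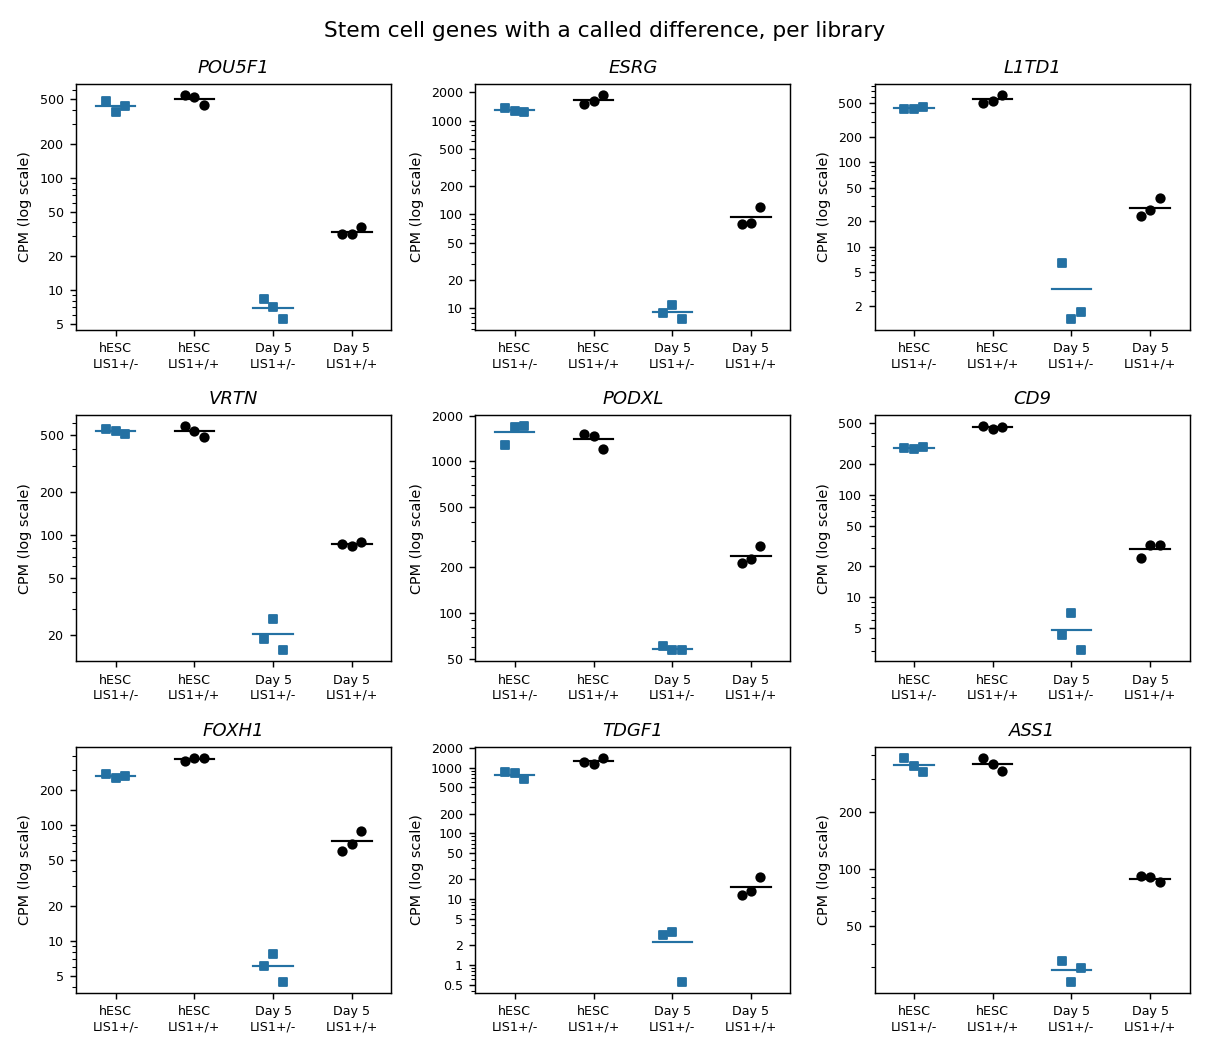
Level in CPM (log scale) of 9 genes with a called negative difference, in each of the 12 libraries. Blue squares are LIS1+/- and black circles LIS1+/+ libraries, 3 a group, and lines are group means. The Day 5 LIS1+/- libraries lie below the Day 5 LIS1+/+ libraries in every panel, while POU5F1, VRTN, PODXL and ASS1 overlap between genotypes in hESC.

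Nodal signalling runs from the ligand NODAL through its co-receptor TDGF1 (Cripto) to SMAD2 and SMAD3, which act on DNA with FOXH1. Of 16 tested genes of the nodal and primitive streak list, 4 had a called negative difference (25%, beside 1.02% of all tested genes). None had a called positive one, and the median difference was -0.44. These 4 were the ligand, the co-receptor, the DNA-binding partner and MIXL1, a homeobox target of the pathway in the primitive streak. The co-receptor TDGF1 was also counted in the pluripotency list.

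NODAL had 24.7, 19.6 and 16.9 CPM in LIS1+/- stem cells, against 39.0, 30.9 and 27.0 CPM in LIS1+/+ stem cells. By Day 5 it had 0, 1.75 and 0.834 CPM in LIS1+/- organoids, against 10.4, 11.1 and 10.5 CPM in LIS1+/+ organoids. The groups did not overlap at either stage, and 1 LIS1+/- Day 5 library had no NODAL count. The difference was -2.87 ± 0.59 (adjusted p = 0.0119). TDGF1 had 2.19 ± 1.42 CPM in LIS1+/- Day 5 organoids, against 15.5 ± 5.40 CPM in LIS1+/+ Day 5 organoids, and differed by -2.18 ± 0.42 (adjusted p = 0.00759). In hESC the TDGF1 effect was -0.70 and not called (adjusted p = 0.11), with all LIS1+/- values under the LIS1+/+ ones. TDGF1 has processed copies elsewhere in the genome, which makes its level uncertain.

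FOXH1 had 276, 257 and 264 CPM in LIS1+/- stem cells, against 361, 382 and 379 CPM in LIS1+/+ stem cells. At Day 5 it had 6.08, 7.70 and 4.45 CPM in LIS1+/- organoids, against 60.1, 69.1 and 88.7 CPM in LIS1+/+ organoids. At both stages the LIS1+/- values were under all LIS1+/+ values, by far more at Day 5. The difference was -3.10 ± 0.27 (adjusted p = 3.42e-07), from -0.49 in hESC (adjusted p = 0.182) and -3.59 at Day 5 (adjusted p = 2.43e-10). At Day 5, 2.29% of its hESC level was left in LIS1+/-, against 19.4% in LIS1+/+.

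MIXL1 went another way in LIS1+/+ than the other 3 genes, since it was higher at Day 5 than in stem cells there. It had 1.2, 2.61 and 3.1 CPM in LIS1+/- stem cells, against 1.39, 3.29 and 4.20 CPM in LIS1+/+ stem cells. Day 5 values were 0.358, 0.700 and 0.834 CPM in LIS1+/- organoids, against 13.2, 14.1 and 41.4 CPM in LIS1+/+ organoids. The stem cell groups overlapped at levels of a few counts a library, and at Day 5 the LIS1+/- libraries held 6 counts in all, against 312 in the LIS1+/+ libraries, of which 1 library stood above the others. The difference was -4.83 ± 0.96 (adjusted p = 0.00858), and it was not called without the third LIS1+/- stem cell library (adjusted p = 0.076). Summed over 6 mesoderm and muscle markers, MIXL1 among them, Day 5 levels were 0.715 to 1.11 CPM in LIS1+/- organoids, against 16.7 to 45.6 CPM in LIS1+/+ organoids. MIXL1 made most of the LIS1+/+ sum, so the sum largely repeats its values. The brachyury gene T had no count in LIS1+/- organoids, against 1.39, 0.217 and 2.18 CPM in LIS1+/+ organoids. The part of mesodermal cells in the MIXL1 difference was not tested. The receptors and SMADs of the list were not called: ACVR1B differed by -0.44 ± 0.28, ACVR2B by 0.19 ± 0.31, SMAD2 by 0.08 ± 0.64 and SMAD4 by 0.21 ± 0.35. LEFTY1, a secreted inhibitor of nodal, differed by -2.47 ± 0.73 (adjusted p = 0.118) and LEFTY2 by 1.06 ± 0.44 (adjusted p = 0.294).

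Several genes outside these lists had a called negative difference with a lower level in LIS1+/- organoids. ASS1, argininosuccinate synthase of arginine synthesis, had 29.2 ± 3.71 CPM in LIS1+/- Day 5 organoids, against 88.7 ± 3.49 CPM in LIS1+/+ Day 5 organoids, and differed by -1.59 ± 0.21 (adjusted p = 0.000123), with -0.01 in hESC. SLC2A3, the glucose transporter GLUT3, had 39.4 ± 7.34 CPM in LIS1+/- Day 5 organoids, against 101 ± 17.1 CPM in LIS1+/+ Day 5 organoids, and differed by -1.57 ± 0.24 (adjusted p = 0.000496). RARRES2, the secreted protein chemerin, had 1.21 ± 1.10 CPM in LIS1+/- Day 5 organoids, against 10.4 ± 3.39 CPM in LIS1+/+ Day 5 organoids, and differed by -3.27 ± 0.44 (adjusted p = 0.000123). In each of these genes the 3 LIS1+/- Day 5 libraries lay below the 3 LIS1+/+ ones. In LIS1+/+ cells, 69 of the 101 genes had a lower mean at Day 5 than in stem cells, 32 of them at least 5-fold lower. Of the 16 genes with a positive difference, 10 had a lower mean there, 1 of them at least 5-fold lower. The LIS1+/+ libraries also enter the difference by which these genes were chosen, and the share over all tested genes is not given here.

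Among called genes with a mean of at least 10 CPM in some group, the largest fitted negative difference belonged to IDO1, an enzyme that breaks down tryptophan. It had 47.5, 47.0 and 62.6 CPM in LIS1+/- stem cells, against 79.4, 73.7 and 97.2 CPM in LIS1+/+ stem cells. At Day 5 it had no count in the 3 LIS1+/- libraries, against 34 counts in the LIS1+/+ libraries. With 3 counts over the group taken as the floor, IDO1 at Day 5 was 7.76-fold lower in LIS1+/-. The exact 95% counting interval begins at 5.98-fold. Its fitted difference of -5.23 ± 1.09 is no bound, so its rank is not settled. The call (adjusted p = 0.0153) was lost without the third LIS1+/- Day 5 library (adjusted p = 0.0561). CALB2, calretinin, had 3 counts in LIS1+/- Day 5 libraries, against 69 in LIS1+/+, a level 15.8-fold higher in LIS1+/+ with an exact 95% counting interval of 5.17 to 78.2. HTR3A, a serotonin-gated channel subunit, had 3 counts in LIS1+/- Day 5 libraries, against 59 in LIS1+/+, 13.5-fold higher in LIS1+/+ with an interval of 4.39 to 67.2. These intervals cover counting error only. CALB2 was not called without the third LIS1+/- Day 5 library (adjusted p = 0.0515), and HTR3A lost its call with any of 9 libraries left out.

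SCGB3A2, a secretoglobin, had 0.472 ± 0.409 CPM in LIS1+/- Day 5 organoids, against 10.8 ± 2.73 CPM in LIS1+/+ Day 5 organoids, and differed by -3.86 ± 0.57 (adjusted p = 0.000443). PPP1R17, a phosphatase inhibitor, had 2.57 ± 1.43 CPM in LIS1+/- Day 5 organoids, against 17.1 ± 2.46 CPM in LIS1+/+ Day 5 organoids, and differed by -3.43 ± 0.46 (adjusted p = 0.000123). TNFAIP2, a gene induced by tumour necrosis factor, differed by -3.47 ± 0.70 (adjusted p = 0.00941). The antisense transcript JAKMIP2-AS1 differed by -3.45 ± 0.72 (adjusted p = 0.0134), lost its call without the third LIS1+/- Day 5 library (adjusted p = 0.0576), and may hold reads of its sense partner, since the strand setting of the counting is not stated in these sources.

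At 36 of the 117 genes the genotype effect changed sign between the stages with a log2 size of at least 0.5 at both, 30 of them with a negative and 6 with a positive difference. Both effects were called at 3 of these, STOML3, VGF and AHNAK, all higher in LIS1+/- stem cells and lower in LIS1+/- organoids. At the rest, at least 1 of the effects was not called. Calling genes on the difference favours opposite signs, and the share over all tested genes is not given here. STOML3, a membrane protein of the stomatin family, had 31.9, 26.1 and 16.5 CPM in LIS1+/- stem cells, against 7.43, 9.21 and 6.0 CPM in LIS1+/+ stem cells. In the Day 5 libraries it had 0.715, 0.700 and 0.834 CPM in LIS1+/- organoids, against 7.20, 5.64 and 5.23 CPM in LIS1+/+ organoids. The groups did not overlap at either stage and stood in opposite order. The hESC effect was 1.70 (adjusted p = 0.0209), the Day 5 effect -2.92 (adjusted p = 0.000823) and the difference -4.62 ± 0.61 (adjusted p = 0.000123).

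VGF, a secreted neuropeptide precursor, had 578, 512 and 556 CPM in LIS1+/- stem cells, against 291, 293 and 282 CPM in LIS1+/+ stem cells. Levels at Day 5 were 21.8, 19.2 and 10.8 CPM in LIS1+/- organoids, against 30.6, 44.0 and 30.7 CPM in LIS1+/+ organoids. Its groups did not overlap at either stage and were also in opposite order, with a difference of -1.97 ± 0.28 (adjusted p = 0.000211, and 0.0704 when all 18 libraries were fitted together). AHNAK, a very large scaffold protein, had 54.0 ± 10.7 CPM in LIS1+/- stem cells, against 23.7 ± 2.52 CPM in LIS1+/+ stem cells, and 1.32 ± 1.09 CPM in LIS1+/- Day 5 organoids, against 4.85 ± 1.39 CPM in LIS1+/+ Day 5 organoids. Its difference was -3.07 ± 0.54 (adjusted p = 0.00291), resting on 12 counts in the LIS1+/- Day 5 libraries and 66 in the LIS1+/+ ones.

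At 16 genes the difference was called, the hESC effect was called and the Day 5 effect was not. In 12 of them the LIS1+/- stem cells were above LIS1+/+ (HES4, DLK1, GDPD5, CDKN1C, CTNNBIP1, DPYSL5, FLNC, CDC42EP1, MYL9, REC8, TWIST1 and C18orf8), and in 4 they were below (MDFI, ARRB1, STARD7 and SYT11). C18orf8 lost its call with any of 9 libraries left out, STARD7 with any of 5, REC8 with any of 4 and CDC42EP1 without the second LIS1+/+ Day 5 library. HES4, a repressor downstream of Notch, had 89.6, 66.5 and 52.7 CPM in LIS1+/- stem cells, against 6.50, 21.0 and 12.6 CPM in LIS1+/+ stem cells. By Day 5 it had 550.5, 288 and 528 CPM in LIS1+/- organoids, against 574, 564 and 589.5 CPM in LIS1+/+ organoids. In stem cells every LIS1+/- library lay above every LIS1+/+ library, while at Day 5, when both genotypes held far more HES4, all 3 LIS1+/- libraries lay below LIS1+/+, 1 of them clearly and the other two by little. The hESC effect was 2.42 (adjusted p = 0.00161), the Day 5 effect -0.34 (adjusted p = 0.649) and the difference -2.76 ± 0.42 (adjusted p = 0.00137).

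DLK1, an imprinted gene for a membrane protein related to Notch ligands, had 181, 133 and 159 CPM in LIS1+/- stem cells, against 65.0, 63.8 and 64.2 CPM in LIS1+/+ stem cells. At Day 5 it had 2116, 2881 and 2195 CPM in LIS1+/- organoids, against 2736, 3626 and 2106 CPM in LIS1+/+ organoids. The stem cell groups were apart and the Day 5 groups overlapped. The difference was -1.52 ± 0.26 (adjusted p = 0.00202). Another imprinted gene, the CDK inhibitor CDKN1C, differed by -1.36 ± 0.26 (adjusted p = 0.00748). DLK1 and CDKN1C were the 2 called among 17 tested imprinted genes (11.8%, beside 1.02% of all tested genes), with a list median of -0.19.

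CTNNBIP1, an inhibitor of the binding of beta-catenin to TCF factors, had 141, 126 and 136 CPM in LIS1+/- stem cells, against 73.4, 61.8 and 60.6 CPM in LIS1+/+ stem cells. Day 5 values were 192, 163 and 172 CPM in LIS1+/- organoids, against 207, 196 and 162 CPM in LIS1+/+ organoids. The groups were apart in stem cells and overlapped at Day 5, with a difference of -1.14 ± 0.22 (adjusted p = 0.00761). DPYSL5, a protein of the collapsin response family, differed by -0.97 ± 0.19 (adjusted p = 0.00941), with an effect of 0.92 in hESC and -0.05 at Day 5. TWIST1, a factor of mesenchyme and neural crest, had 80.4 ± 10.01 CPM in LIS1+/- stem cells, against 24.3 ± 3.00 CPM in LIS1+/+ stem cells, and at Day 5 it was down to 16 counts in the LIS1+/- libraries, against 31 in the LIS1+/+ ones. Its difference of -2.13 ± 0.50 (adjusted p = 0.0354) was lost with any of 8 libraries left out.

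The 4 genes lower in LIS1+/- stem cells alone went the other way. ARRB1, beta-arrestin 1, had 15.6, 12.2 and 12.4 CPM in LIS1+/- stem cells, against 49.2, 38.8 and 48.0 CPM in LIS1+/+ stem cells. In the Day 5 libraries it had 11.8, 12.9 and 5.84 CPM in LIS1+/- organoids, against 5.11, 8.02 and 6.10 CPM in LIS1+/+ organoids. The stem cell groups were far apart and the Day 5 groups overlapped. The difference was 2.42 ± 0.43 (adjusted p = 0.0035). MDFI, an inhibitor of myogenic factors, had 60.1 ± 6.27 CPM in LIS1+/- stem cells, against 116 ± 12.0 CPM in LIS1+/+ stem cells, and 270.1 ± 43.2 CPM in LIS1+/- Day 5 organoids, against 209 ± 12.8 CPM in LIS1+/+ Day 5 organoids. The LIS1+/- organoid libraries lay above the LIS1+/+ ones without overlap, but the Day 5 effect of 0.37 was not called (adjusted p = 0.284). The MDFI difference was 1.32 ± 0.23 (adjusted p = 0.00225). SYT11, a synaptotagmin, had 2.27 ± 0.418 CPM in LIS1+/- stem cells, against 9.86 ± 2.10 CPM in LIS1+/+ stem cells, and 17.8 ± 3.14 CPM in LIS1+/- Day 5 organoids, against 16.0 ± 2.84 CPM in LIS1+/+ Day 5 organoids. SYT11 differed by 2.23 ± 0.50 (adjusted p = 0.0236), a call lost with any of 6 libraries left out.

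Of the 16 genes with a positive difference, 9 were called higher in LIS1+/- organoids at Day 5 with no call in stem cells. ALDH1A3, which makes retinoic acid, had 2.41, 1.74 and 1.72 CPM in LIS1+/- stem cells, against 3.25, 5.26 and 3.60 CPM in LIS1+/+ stem cells. Levels at Day 5 were 14.3, 15.0 and 19.5 CPM in LIS1+/- organoids, against 1.86, 2.82 and 1.53 CPM in LIS1+/+ organoids. The LIS1+/- values lay under all LIS1+/+ values in stem cells and over all of them at Day 5. The difference was 3.99 ± 0.67 (adjusted p = 0.00163), the largest positive one, from -1.04 in hESC (adjusted p = 0.429) and 2.95 at Day 5 (adjusted p = 4.13e-05).

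CYP26A1, which breaks retinoic acid down, moved in the opposite direction. It had 152, 146 and 144 CPM in LIS1+/- stem cells, against 106, 143 and 148 CPM in LIS1+/+ stem cells. By Day 5 it had 2.15, 0 and 0.278 CPM in LIS1+/- organoids, against 5.57, 5.20 and 15.0 CPM in LIS1+/+ organoids. The stem cell groups overlapped and the Day 5 groups did not. The difference was -3.59 ± 0.71 (adjusted p = 0.013), and it was not called without the third LIS1+/- Day 5 library (adjusted p = 0.0545). The value was -5.62 without the first LIS1+/- Day 5 library and -2.92 without the third LIS1+/+ Day 5 library, and the adjusted p was 0.152 when all 18 libraries were fitted together. These 2 were the called genes among 13 tested of the retinoic acid list (15.4%, beside 1.02% of all tested genes). The list's median difference was -0.13 and took the other sign in 6 of 20 other ways of processing. RDH10, an earlier enzyme of retinoic acid synthesis, differed by 1.55 ± 0.46 (adjusted p = 0.118).

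SFRP2, a secreted WNT inhibitor, had 955, 819.5 and 898 CPM in LIS1+/- stem cells, against 812, 887 and 1011 CPM in LIS1+/+ stem cells. At Day 5 it had 4795, 4789 and 5452 CPM in LIS1+/- organoids, against 2443, 2224 and 2300.3 CPM in LIS1+/+ organoids. The stem cell groups overlapped, and the 3 LIS1+/- organoid libraries all lay well above the 3 LIS1+/+ ones. The difference was 1.13 ± 0.19 (adjusted p = 0.00169). In the list of 41 tested WNT genes, SFRP2 was called higher and the receptor FZD7 lower, at -1.0 ± 0.20 (adjusted p = 0.00858). The other 39 were not called, so 4.88% of the list was called, beside 1.02% of all tested genes.

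CLDN1, a tight junction protein, had 1.81, 1.74 and 5.85 CPM in LIS1+/- stem cells, against 6.04, 5.26 and 9.60 CPM in LIS1+/+ stem cells. Day 5 values were 40.4, 65.4 and 88.7 CPM in LIS1+/- organoids, against 10.2, 10.2 and 21.6 CPM in LIS1+/+ organoids. The groups did not overlap at Day 5 and did in stem cells, where counts were low. The difference was 3.23 ± 0.64 (adjusted p = 0.0103), not called without the third LIS1+/+ stem cell library (adjusted p = 0.0721). The desmosome gene DSP moved the other way, at -2.44 ± 0.44 (adjusted p = 0.00375). The remaining 24 of 26 tested junction genes were not called, so 7.69% were, beside 1.02% of all tested genes.

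The other positive differences were smaller or less certain. GLIS2, a zinc finger factor, had 57.3 ± 4.05 CPM in LIS1+/- stem cells, against 89.8 ± 12.6 CPM in LIS1+/+ stem cells, and 88.0 ± 6.65 CPM in LIS1+/- Day 5 organoids, against 57.1 ± 3.62 CPM in LIS1+/+ Day 5 organoids. Its genotype order turned over between the stages, with a difference of 1.28 ± 0.24 (adjusted p = 0.00525). The GLIS2 effect of -0.65 in hESC was not called (adjusted p = 0.0826). HOMER2, a postsynaptic scaffold protein, had 68.1 ± 15.1 CPM in LIS1+/- Day 5 organoids, against 19.1 ± 2.72 CPM in LIS1+/+ Day 5 organoids and differed by 1.57 ± 0.32 (adjusted p = 0.012), a call lost without the second LIS1+/+ stem cell library (adjusted p = 0.065). MCHR1, a receptor for melanin-concentrating hormone, differed by 2.43 ± 0.57 (adjusted p = 0.0342), the chemokine CCL2 by 2.79 ± 0.66 (adjusted p = 0.0362) and B2M, the light chain of MHC class I molecules, by 1.77 ± 0.42 (adjusted p = 0.0397). MED24, a mediator subunit, differed by 1.23 ± 0.29 (adjusted p = 0.0354) and RRP7A, of ribosomal RNA processing, by 1.19 ± 0.29 (adjusted p = 0.0401). These last 5 calls were each lost with any of 6 or more of the 12 libraries left out.

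**Figure D3:**
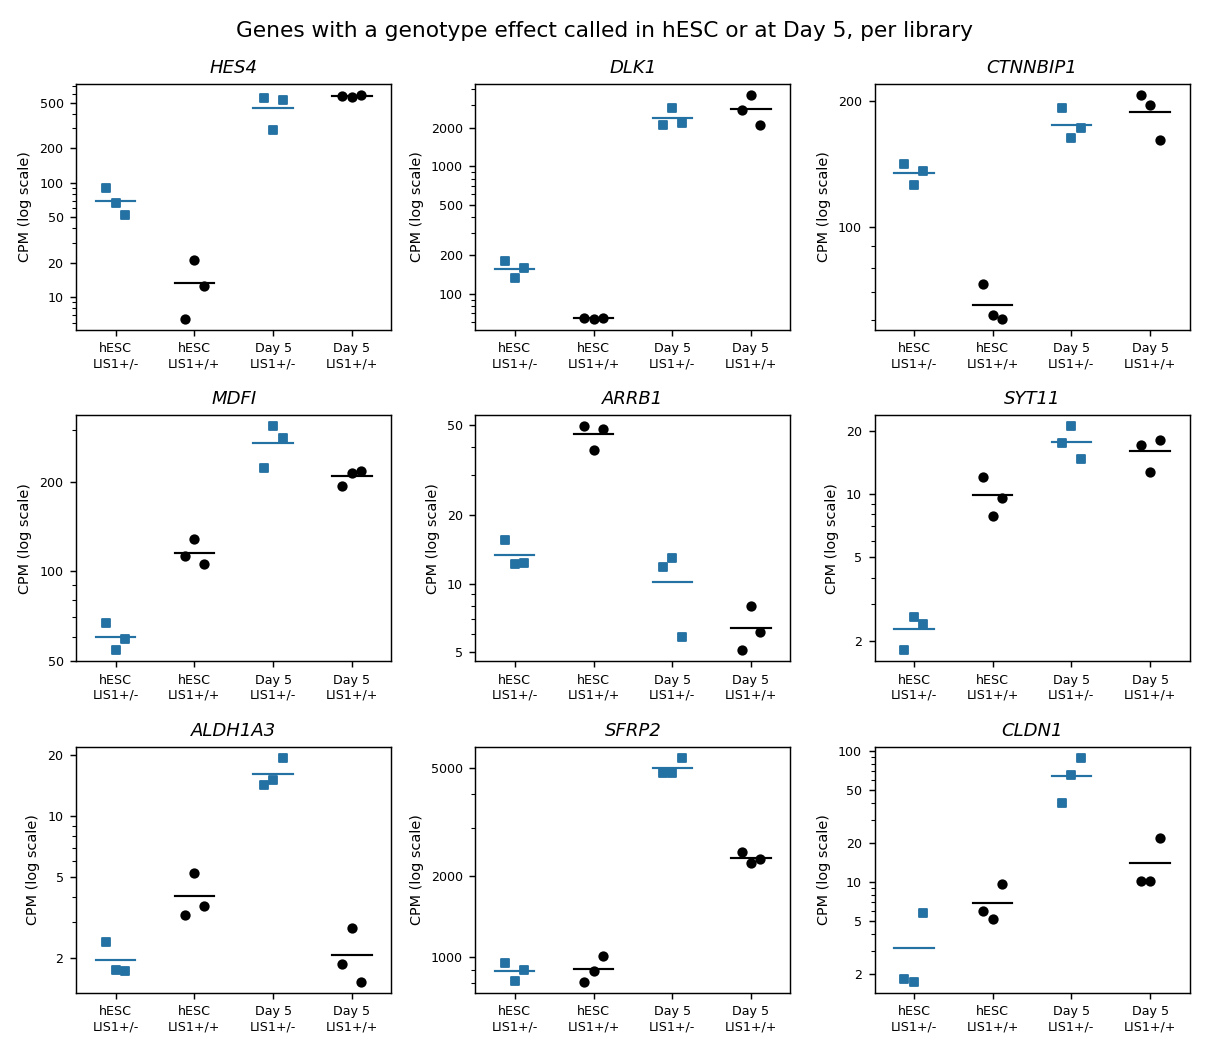
Level in CPM (log scale) of 6 genes called for the genotype in hESC alone (HES4, DLK1, CTNNBIP1, MDFI, ARRB1 and SYT11) and of 3 called higher in LIS1+/- at Day 5 (ALDH1A3, SFRP2 and CLDN1), in each of the 12 libraries. Blue squares are LIS1+/- and black circles LIS1+/+ libraries, 3 a group, and lines are group means. In the first 6 panels the genotypes are apart in hESC, and in the last 3 they are apart at Day 5.

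Genes that pattern the early neural plate gave few called differences. Of 11 tested midbrain and hindbrain genes, 2 had a called negative difference and none a positive one (18.2%, beside 1.02% of all tested genes). The list median was -1.37. GBX2, a homeobox gene of the anterior hindbrain, had 7.22, 9.56 and 7.57 CPM in LIS1+/- stem cells, against 3.71, 5.92 and 3.60 CPM in LIS1+/+ stem cells. In the Day 5 libraries it had 9.66, 11.5 and 5.84 CPM in LIS1+/- organoids, against 47.6, 37.7 and 34.0 CPM in LIS1+/+ organoids. The LIS1+/- stem cell libraries lay above the LIS1+/+ ones at low counts, and the Day 5 libraries lay below them without overlap. The difference was -3.06 ± 0.48 (adjusted p = 0.000884), while the hESC effect of 0.90 was not called (adjusted p = 0.346).

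IRX2, of the Iroquois homeobox family, had 81.0 ± 4.71 CPM in LIS1+/- Day 5 organoids, against 232 ± 17.1 CPM in LIS1+/+ Day 5 organoids, and differed by -1.37 ± 0.21 (adjusted p = 0.000717, and 0.05 when all 18 libraries were fitted together). None of 17 forebrain genes and none of 11 eye field genes was called for the difference, with medians of -0.40 and 0.66. Where genes at 0 counts in 1 of the groups were set to their bound or left out, the medians became -0.18 for the forebrain list and 0.34 for the eye field list. The Day 5 effect was called for 6 of the 17 and for 6 of the 11, all higher in LIS1+/-, beside 0.712% of all tested genes. SIX3, of forebrain and eye field, had an effect of 1.02 in hESC and 1.17 at Day 5, and LHX2, of the eye field, one of 0.98 in hESC and 1.32 at Day 5, so the differences of 0.15 ± 0.22 and 0.34 ± 0.29 were not called (adjusted p = 0.828 and 0.656).

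Of 22 tested neural progenitor genes, HES4 and DLK1 were called lower and SFRP2 higher for the difference (13.6%, beside 1.02% of all tested genes). PAX6 differed by -0.30 ± 1.02 (adjusted p = 0.931). Among 21 Notch genes, HES4 and the receptor NOTCH3, at -1.30 ± 0.28 (adjusted p = 0.0193), were called lower and none higher (9.52%, beside the same 1.02%). Of the 21 values, 16 were below 0. The NOTCH3 call was lost with any of 4 libraries left out. None of 15 radial glia genes and none of 16 genes of neurogenesis was called. Summed over 6 neuron markers, levels ran from 278 to 384 CPM in LIS1+/- Day 5 organoids, against 247 to 273 CPM in LIS1+/+ ones. In stem cells the sum was 490 to 543 CPM in LIS1+/- and 398 to 524 CPM in LIS1+/+. Most of it at Day 5 was TUBB3, which with DCX was higher in all LIS1+/- libraries. STMN2 and ELAVL3 were lower in all of them, and ELAVL4 and NEUROD1 were at or near 0.

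Lists of matrix, adhesion and contractile cytoskeleton genes held few called members. Of 25 tested integrin and focal adhesion genes, 3 were called lower (12%, beside the 1.02% of all tested genes called in either direction) and none higher, with a median difference of -0.60. ITGA5, the alpha chain of the fibronectin receptor, had 59.0, 57.4 and 89.5 CPM in LIS1+/- stem cells, against 52.9, 49.3 and 32.4 CPM in LIS1+/+ stem cells. Levels at Day 5 were 57.2, 48.6 and 70.6 CPM in LIS1+/- organoids, against 143, 136 and 99.2 CPM in LIS1+/+ organoids. The LIS1+/- libraries lay above the LIS1+/+ ones in stem cells and below them at Day 5, without overlap at either stage. The difference was -1.71 ± 0.31 (adjusted p = 0.00441), while the hESC effect of 0.62 was not called (adjusted p = 0.247).

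The other 2 were paxillin (PXN), an adaptor at focal adhesions, with a difference of -1.26 ± 0.25 (adjusted p = 0.00858), and filamin C (FLNC), an actin crosslinker, with -1.13 ± 0.23 (adjusted p = 0.0119). FLNC was not called without the second LIS1+/+ Day 5 library (adjusted p = 0.0511). Of 46 tested genes of actomyosin and serum response factor targets, 36 had a difference below 0, with a median of -0.43, and 1 was called (2.17%, beside the same 1.02%), the myosin light chain MYL9 at -1.23 ± 0.26 (adjusted p = 0.0141). Over all tested genes 5905 of 11522 differences were below 0.

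Of 46 tested collagen and matrix genes, 35 were below 0, with a median of -0.38, and 2 were called lower (4.35%). COL1A2, a chain of fibrillar collagen I, had 16.7 ± 2.66 CPM in LIS1+/- Day 5 organoids, against 48.3 ± 4.11 CPM in LIS1+/+ Day 5 organoids, and differed by -1.81 ± 0.24 (adjusted p = 0.000123, and 0.136 when all 18 libraries were fitted together). The crosslinking enzyme LOXL2 differed by -1.30 ± 0.30 (adjusted p = 0.0288), a call lost with any of 7 libraries left out. Summed over 7 mesenchyme and fibroblast markers, COL1A2 and TWIST1 among them, levels were 483 to 571 CPM in LIS1+/- stem cells, against 432 to 470 CPM in LIS1+/+ stem cells, and 22.05 to 26.97 CPM in LIS1+/- Day 5 organoids, against 49.2 to 62.1 CPM in LIS1+/+ Day 5 organoids. Most of the Day 5 gap was COL1A2 itself, while COL1A1, COL3A1 and TWIST1 overlapped between the genotypes. In stem cells COL3A1 and TWIST1 were higher in LIS1+/-, COL1A1 and POSTN were lower, and COL1A2 overlapped. The fibroblast marker LUM had no count in stem cells of either genotype, and DCN none in LIS1+/- stem cells or at Day 5. The part of mesenchymal cells in these differences was not tested.

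Smaller lists held 1 or 2 called members each, beside 1.02% of all tested genes, and 1 called gene makes 3.33% of a list of 30. Of 10 tested surface ectoderm and epithelial genes, the simple keratins KRT19, at -1.57 ± 0.31 (adjusted p = 0.00846), and KRT18, at -1.16 ± 0.25 (adjusted p = 0.0206), were called lower, and both have many processed copies. KRT18 lost its call with any of 5 libraries left out. KRT19 also stood in the endoderm list, where it was the 1 called gene of 5. The surface ectoderm markers KRT5 and KRT14 had no count in any of the 4 groups. Of 5 tested muscle genes TNNT1, a troponin, was called at -2.08 ± 0.28 (adjusted p = 0.000123). It had 32.4 ± 3.41 CPM in LIS1+/- Day 5 organoids, against 104 ± 9.76 CPM in LIS1+/+ Day 5 organoids, and in LIS1+/+ cells its level at Day 5 was 108% of that in stem cells, against 25.5% in LIS1+/-.

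Among stress genes, DDIT4, an inhibitor of mTORC1 induced by stress, was called at -1.60 ± 0.25 (adjusted p = 0.000789), as 1 of 29 tested genes of the unfolded protein and integrated stress response. SLC2A3 was 1 of 30 of the hypoxia and glycolysis list, IER3 at -1.42 ± 0.34 (adjusted p = 0.0377) 1 of 20 immediate early genes, and CDKN1C 1 of 28 CDK inhibitors and p53 targets. The IER3 call was lost with any of 10 of the 12 libraries left out. TWIST1 was the 1 called of 17 neural crest genes and, with COL1A2, 1 of 2 called of 6 mesenchyme genes. SYT11 was the 1 called of 16 synapse genes. Summed neural crest markers were 10.01 to 29.4 CPM in LIS1+/- Day 5 organoids, against 30.3 to 55.4 CPM in LIS1+/+ Day 5 organoids. Of these markers SOX10 was lower in all LIS1+/- Day 5 libraries, FOXD3, PAX3 and SNAI2 overlapped between the genotypes, and TFAP2B was at or near 0. In stem cells the sum was 82.6 to 116 CPM in LIS1+/- and 101 to 119 CPM in LIS1+/+, most of it FOXD3. The part of neural crest cells was not tested.

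None of the tested members was called for the difference in 24 of 46 lists. Of 42 genes of LIS1, dynein and dynactin none was called, with a median of -0.05, and the dynein heavy chain DYNC1H1 differed by -0.24 ± 0.21 (adjusted p = 0.668) and the dynactin subunit DCTN1 by -0.71 ± 0.28 (adjusted p = 0.259). None of 29 tubulin and microtubule-associated genes, of 33 kinesins, of 38 mitosis genes or of 20 genes around LIS1 in 17p13.3 was called. None of 40 DNA replication genes was called, with 30 above 0 and a median of 0.16, and none of 59 oxidative phosphorylation genes, with 44 above 0 and a median of 0.30. None of 76 cytosolic ribosomal protein genes was called, with a median of 0.12. The medians of the oxidative phosphorylation, DNA replication and ribosomal lists stayed above 0 in all 20 other ways of processing, where they lay between 0.19 and 0.41, 0.12 and 0.23, and 0.03 and 0.21. Without adjustment, 1579 of the 11522 genes had p under 0.05. No member was called in the lists of BMP (23 tested), FGF (20) and hedgehog (13) signalling, choroid plexus and roof plate (13), axon guidance (28), protocadherins (8), chromatin (33), timing (14), RNA splicing (19), RNA polymerase III (19), cholesterol synthesis (23) and feeder and trophoblast genes (7). In all, 997 distinct genes of the 46 lists were tested, of which 34 were called lower and 4 higher, and 79 of the 117 called genes were in no list.

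**Figure D4:**
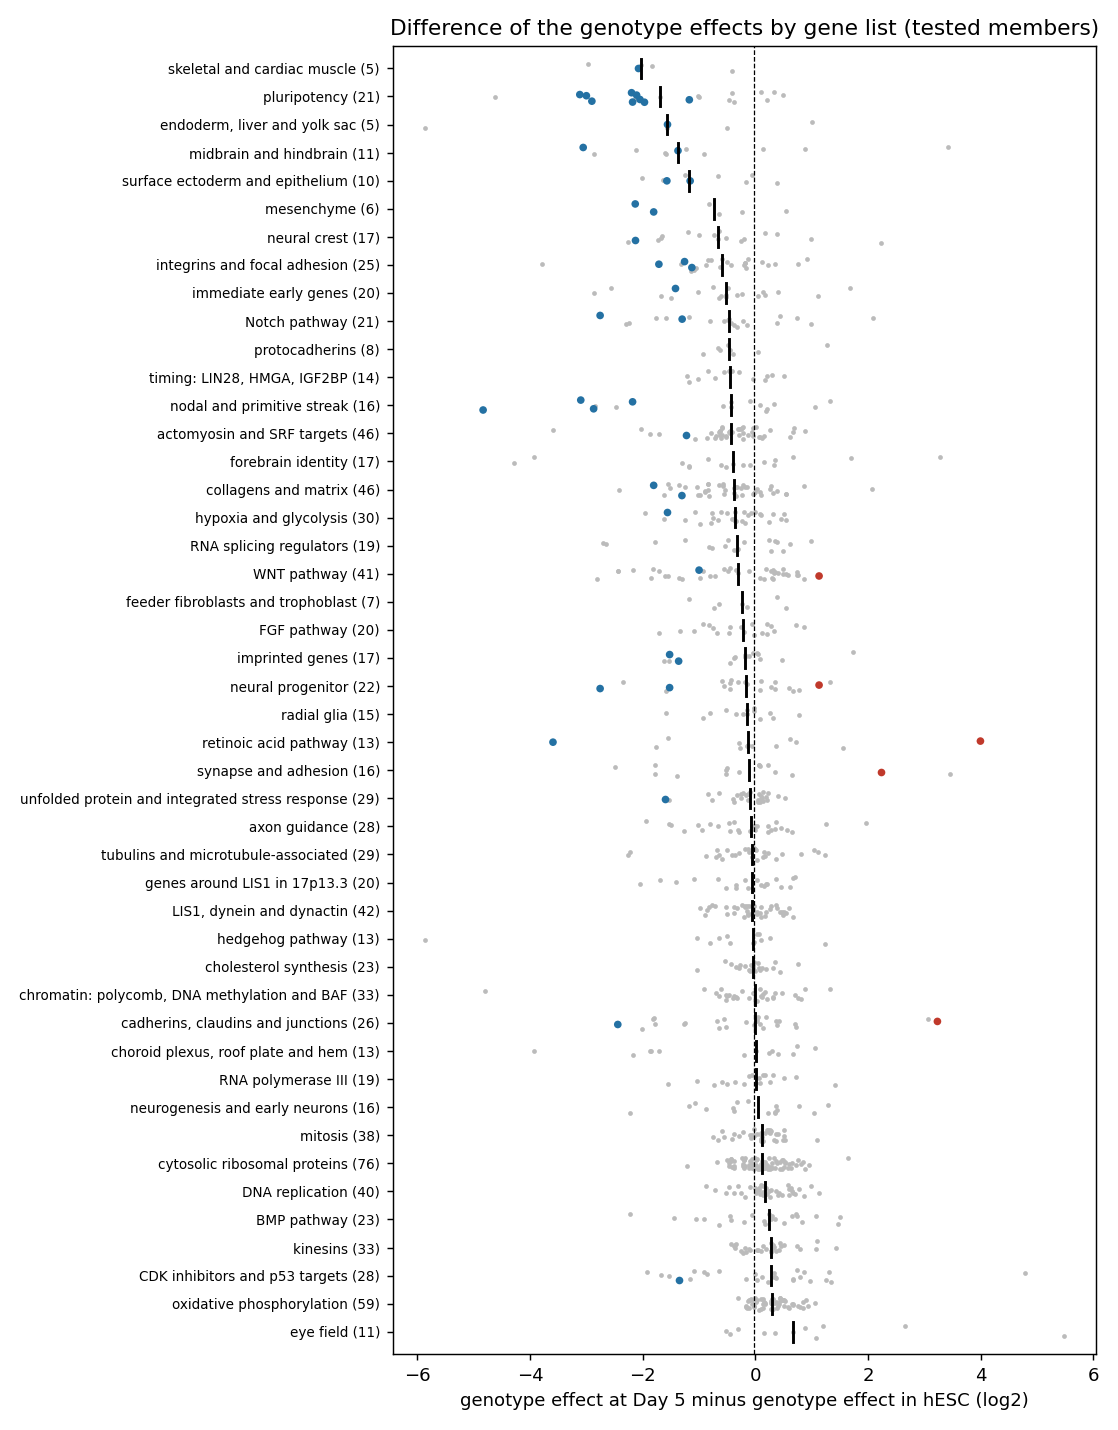
Difference of the genotype effects (Day 5 minus hESC, log2) of each tested member of the 46 gene lists, ordered by list median, with the number tested in brackets. Blue points are called negative, red points called positive, grey points not called, black bars list medians, and the dashed line the median of all tested genes at -0.02. All values are fitted ones, and the pluripotency list, with a fitted median of -1.70, holds 9 blue points.

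The Day 12 organoid libraries share none of the 12 and were fitted alone, where 41 of 10337 tested genes were called for the genotype (0.397%), 28 of them lower (0.271%). Of the 101 genes with a negative difference, 74 were tested at Day 12, and 48 of these (64.9%) were lower in LIS1+/-, with a median effect of -0.26 and 3 called lower, SLC2A3 at -1.32 (adjusted p = 0.0333), DLK1 at -1.56 (adjusted p = 0.0201) and PKDCC, a secreted kinase, at -2.07 (adjusted p = 0.00134). The difference call of PKDCC was lost with any of 7 libraries left out. Over all 10062 genes tested in both fits, 52.0% were lower, with a median of -0.02. The share was 44.7% among the genes called without a filter on low counts. Of the 16 genes with a positive difference, 14 were tested at Day 12, and 11 of these (78.6%) were lower in LIS1+/-, with a median of -0.43. SYT11 was called lower there, at -1.40 (adjusted p = 0.0372), and SFRP2 had an effect of -0.46 at Day 12. MIXL1, NODAL, FOXH1, TDGF1, ESRG, POU5F1, CYP26A1 and ALDH1A3 did not pass the filter on low counts at Day 12.

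**Figure D5:**
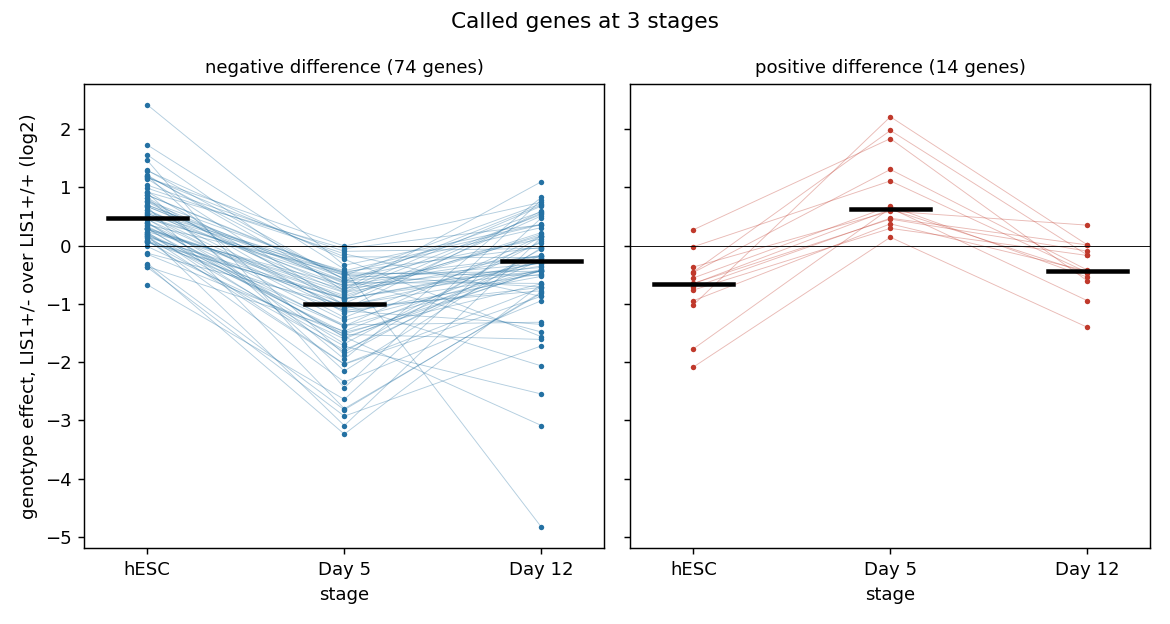
Genotype effect (LIS1+/- over LIS1+/+, log2) in hESC, at Day 5 and at Day 12 of the called genes that were also tested at Day 12, 74 with a negative difference (left) and 14 with a positive one (right). Thin lines join the values of a gene and thick bars are medians at each stage. The medians at Day 12 were -0.26 on the left and -0.43 on the right.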

How the data were processed

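Gene counts were deposited by the authors as 1 table of raw counts per library from bulk MARS-seq of total RNA. The submitters' processing notes name the tools cutadapt, STAR and DESeq2, and as builds GRCh37 and hg38, with no role or order; the counter, the use of molecular identifiers and the strand setting are not given in the sources used here. Each table held 26485 genes and 5 closing rows (no feature, ambiguous and the like), which were left out. Over the 12 libraries, 11.9% to 25.4% of reads fell in the no-feature row.

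The difference was fitted in edgeR 4.0.16 (R 4.3.3) on the 12 libraries: TMM scaling, filterByExpr on the 4 groups, robust quasi-likelihood fit with 8 residual degrees of freedom, 2-sided, Benjamini-Hochberg over 11522 genes, called at adjusted p under 0.05. The SE is the log2 value over the square root of F. CPM use the same scaling. The 6 Day 12 libraries were fitted alone. Alternatives were DESeq2 1.42.0, its size factors, no filter on low counts, all 18 libraries, a replicate block, removal of each library's trend with GC content (from the last 500 bases of GENCODE 29 transcripts, for 95.6% of tested genes), and leaving libraries out. The fits were tested on simulated data. Libraries of a group all differed beyond sampling noise. Counting intervals cover counting error only.

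Genes named by rule were PAFAH1B1, the 12 largest called differences in each direction with at least 10 CPM in some group, the 5 smallest p in each direction and up to 4 genes a list by p. Other genes were named after their values were seen. The 46 gene lists and the genes described were chosen with earlier results of these data known. Values of 1 called gene are not reported here.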

Additional observations from a re-analysis of the deposited data

Results flagged for a closer look

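At 52 of 187 genes named by rule, the edgeR test of the difference itself (adjusted p under 0.05) separated the genotype effect at Day 5 from that in hESC. The largest differences were picked among called genes, so their calls were set by that rule. Of the 52, 26 kept their call in every alternative run. The values are log2 differences, Day 5 minus hESC, over 3 libraries a group.

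Positive differences were 3.99 for ALDH1A3, 3.23 for CLDN1, 2.79 for CCL2, 2.43 for MCHR1, 2.42 for ARRB1, 2.23 for SYT11, 1.77 for B2M, 1.57 for HOMER2, 1.32 for MDFI, 1.28 for GLIS2, 1.23 for MED24, 1.19 for RRP7A and 1.13 for SFRP2.

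Among pluripotency and nodal genes the differences were -4.83 for MIXL1, -3.12 for ZSCAN10, -3.10 for FOXH1, -3.00 for ESRG, -2.87 for NODAL, -2.20 for PODXL, -2.18 for TDGF1 and -2.11 for VRTN. Among patterning, Notch, WNT, retinoic acid and imprinted genes they were -3.59 for CYP26A1, -3.06 for GBX2, -2.76 for HES4, -1.52 for DLK1, -1.37 for IRX2, -1.36 for CDKN1C, -1.30 for NOTCH3 and -1.0 for FZD7. Among matrix, adhesion, contractile and epithelial genes they were -2.44 for DSP, -2.13 for TWIST1, -2.08 for TNNT1, -1.81 for COL1A2, -1.71 for ITGA5, -1.57 for KRT19, -1.30 for LOXL2, -1.26 for PXN, -1.23 for MYL9, -1.16 for KRT18 and -1.13 for FLNC. The remaining negative differences were -5.23 for IDO1, -4.62 for STOML3, -4.10 for CALB2, -3.86 for SCGB3A2, -3.47 for TNFAIP2, -3.45 for JAKMIP2-AS1, -3.44 for HTR3A, -3.43 for PPP1R17, -3.27 for RARRES2, -1.60 for DDIT4, -1.57 for SLC2A3 and -1.42 for IER3.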

How the results depend on the processing

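Of the 117 called genes, 45 kept their call in every alternative run and 61 with each single library left out, and none reversed its sign. Without a filter on low counts, 383 genes were called for the difference, 229 for the hESC effect and 468 for the Day 5 effect, 103 list genes were called (38 as reported), and 44.7% of the negative differences tested at Day 12 were below 0 (64.9% as reported). DESeq2 called 215, 185 hESC effects and 69 list genes. With all 18 libraries fitted together, 70 were called, all among the 117, with 34 of the 52 genes named by rule; of these 52, B2M, CALB2, CCL2, COL1A2, CYP26A1, DSP, HOMER2, HTR3A, IER3, IRX2, KRT18, KRT19, MCHR1, MED24, PPP1R17, PXN, RRP7A and TWIST1 were lost. Of other genes named, APOE, C18orf8, OLFML3, PKDCC, REC8, S100A10, S100A11 and VGF were lost there. Removing the GC trend gave 139 hESC effects. With 1 library left out, hESC effects numbered 28 to 241 (43 and 42 without LIS1+/+ stem cell replicate 1 or 3, 36 and 28 without LIS1+/- stem cell replicate 2 or 3, 241 without LIS1+/- Day 5 replicate 2) and list genes 31 to 61. The difference calls numbered 81 to 154. The PAFAH1B1 difference was -0.033 with the GC trend removed, -0.035 with the replicate block as well, -0.17 without the 2 libraries with the strongest GC trend, and -0.089 to 0.22 with 1 library left out. The cause of these changes was not tested. Repeat numbers gave no clear pairing of the libraries (2 of 18 same-number correlations over 0.1, and 8 of 18 best with their own number). Between LIS1+/- stem cells and LIS1+/- Day 5 organoids each number correlated best with its own, at 0.024 to 0.086. Whether those libraries pair is therefore not settled. The replicate block called 103, of which 99 were among the 117. Depth limits genes at a few counts, such as IDO1, MIXL1 and CALB2.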

Other observations

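Several called genes in no list were chosen here after their values were seen. APOE, a lipid carrier, had 656 ± 107 CPM in LIS1+/- Day 5 organoids, against 1598 ± 224 CPM in LIS1+/+ Day 5 organoids (mean ± SD), and a difference of -1.67 ± 0.24 (edgeR, adjusted p = 0.000223). OLFML3, a secreted matrix protein, had 18.8 ± 4.36 CPM in LIS1+/- Day 5 organoids, against 64.9 ± 4.15 CPM in LIS1+/+ Day 5 organoids, and a difference of -1.87 ± 0.25 (adjusted p = 0.000123). The S100 genes S100A10 and S100A11, which encode calcium-binding proteins and have processed copies, differed by -1.93 ± 0.29 (adjusted p = 0.000545) and -1.95 ± 0.32 (adjusted p = 0.0014). All 4 were lower in LIS1+/- organoids at Day 5 in every library, and none of their hESC effects was called. When all 18 libraries were fitted together none of these 4 differences was called, with adjusted p of 0.0848 for APOE, 0.114 for OLFML3, 0.396 for S100A10 and 0.201 for S100A11.

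CITED2, a transcriptional coregulator, and ROR2, a receptor for WNT5A, were higher at Day 5 than in stem cells in LIS1+/+ cells. CITED2 had 96.4 ± 16.0 CPM in LIS1+/- stem cells, against 62.9 ± 6.92 CPM in LIS1+/+ stem cells, and 89.6 ± 3.60 CPM in LIS1+/- Day 5 organoids, against 156 ± 8.74 CPM in LIS1+/+ Day 5 organoids, with a difference of -1.41 ± 0.23 (adjusted p = 0.00152). ROR2 had 14.6 ± 2.44 CPM in LIS1+/- stem cells, against 8.01 ± 2.98 CPM in LIS1+/+ stem cells, and 30.9 ± 2.56 CPM in LIS1+/- Day 5 organoids, against 68.8 ± 6.60 CPM in LIS1+/+ Day 5 organoids, with a difference of -1.98 ± 0.37 (adjusted p = 0.00471). In both genes the LIS1+/- libraries lay above the LIS1+/+ ones in stem cells and below them at Day 5, without overlap. The Day 5 effects were called, but the hESC effects of 0.61 for CITED2 (adjusted p = 0.107) and 0.82 for ROR2 (adjusted p = 0.235) were not.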
